A study of Mus musculus with 9 samples.

Results

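The genes described here are 40 genes of the actin cytoskeleton and of its transcription by serum response factor (SRF) in RAW 264.7 cells, a mouse macrophage cell line. They were taken as the rows of the deposited count table that carry 1 of 40 gene symbols, and all 40 were found among the 51826 genes counted. All 40 also had enough counts to be tested, as did 14458 genes in total. Polyadenylated RNA was sequenced from 3 groups of 3 cultures. Calycosin plus LPS cells received calycosin, a plant isoflavone, at 100 µg/mL for 24 h and then lipopolysaccharide (LPS), a bacterial cell wall component, at 300 ng/mL for 6 h. LPS cells received the same LPS exposure without calycosin, and vehicle cells received solvent. No group received calycosin without LPS, so a change between the calycosin plus LPS cells and the LPS cells is a change in stimulated cells. The line is a transformed one, and the labels call the samples of a group biological replicates without saying how separate the cultures were. All p values measure the spread between these samples.

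Macrophages crawl, spread and engulf particles by assembling actin monomers into filaments. The Arp2/3 complex starts branches on existing filaments when WASP and WAVE proteins activate it, cofilin takes old filaments apart, and crosslinkers, tropomyosins and myosins turn the filaments into networks and bundles that pull. Adhesion proteins such as talin and vinculin tie them to integrins. Free actin monomers hold the coactivators MRTF-A and MRTF-B in the cytoplasm, and when monomers are used up MRTF enters the nucleus and binds SRF on a DNA motif called the CArG box, where it raises transcription of actin and of many proteins that bind actin.

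Total counts ran from 27784737 to 38524105 per library. Levels are given as CPM, the counts scaled to a common library size, here with factors from the trimmed mean of M values (TMM), which sets the bulk of genes equal between libraries. The share of all counts on the 40 genes was 1.73% to 2.12% in calycosin plus LPS cells, between 2.39% and 2.45% in LPS cells, and between 1.35% and 1.68% in vehicle cells. The cells carried the macrophage markers, with counts for 8 of 8 and summed levels of 3682 to 4322 CPM in calycosin plus LPS cells, 5187 to 5429 CPM in LPS cells and 4820 to 5305 CPM in vehicle cells. Of 12 markers of fibroblasts, epithelium, endothelium, lymphocytes, neutrophils and muscle, Epcam, Krt8 and Ly6g were among those with 0 counts in all libraries, and the 12 summed to 0.986 to 1.57 CPM in calycosin plus LPS cells, 4.65 to 7.42 CPM in LPS cells and 0.699 to 1.03 CPM in vehicle cells. In RNA from whole cultures, a change in how many cells express a gene and a change in RNA per cell cannot be told apart.

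Libraries within a group were not alike in composition. Mitochondrial genes took 17.2%, 7.45% and 19.4% of the counts in the calycosin plus LPS libraries, 14.1%, 14.7% and 13.0% in the LPS libraries and 3.79%, 3.68% and 21.9% in the vehicle libraries. Vehicle replicate 3 and calycosin plus LPS replicate 2 therefore stood apart from their groups, and their differences from the other replicates also followed the GC content of transcripts. Over the 40 genes the correlation of that difference with GC content was 0.42 in calycosin plus LPS replicate 2 (40 genes) and -0.28 in vehicle replicate 3 (39 genes), as a description across genes that share a library. The gene most affected was Coro1a, 1.46 log2 units below the other replicates in vehicle replicate 3, and Fscn1 was 1.14 log2 units above them in calycosin plus LPS replicate 2. The counts of called genes among the 40 are given with and without these libraries, and values of single genes without them only in part.

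**Figure D1:**
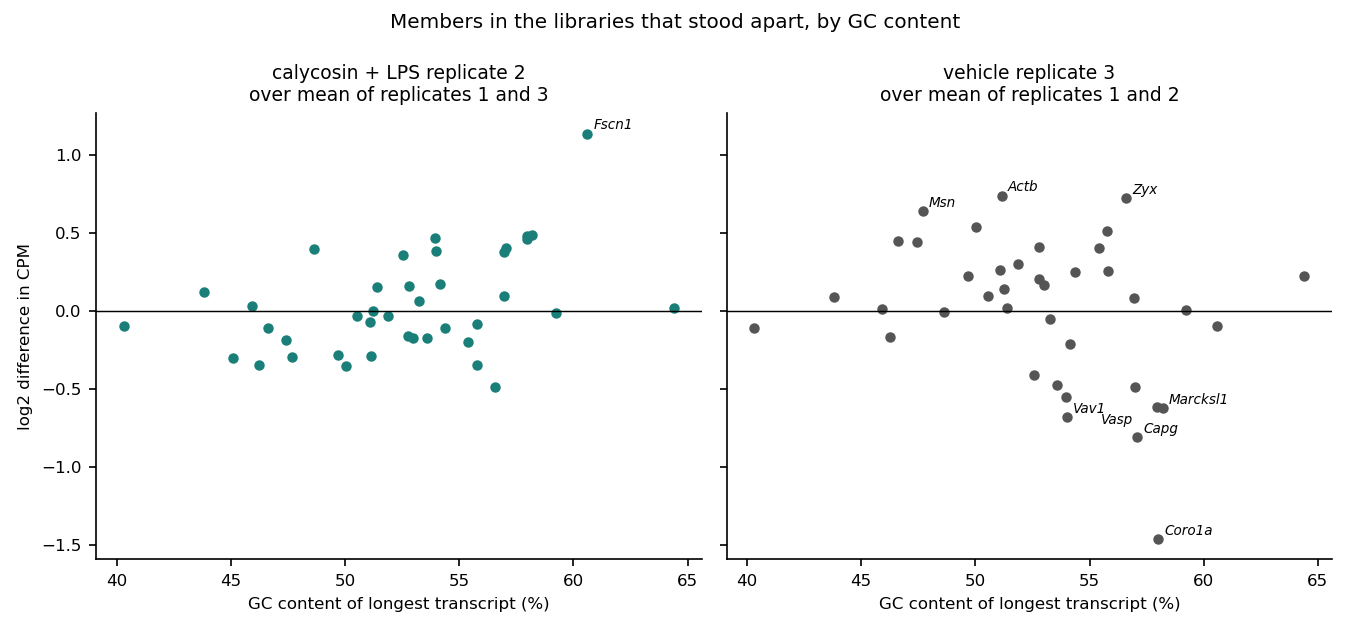
Each point is 1 of the 40 genes (39 on the right, since Marcks had 0 counts in vehicle replicates 2 and 3). The x axis gives the GC content of its longest transcript in percent and the y axis the log2 difference in CPM between the library named above the panel and the mean of the other replicates of its group. Differences lean upward with GC content in calycosin plus LPS replicate 2 and downward in vehicle replicate 3, where Coro1a lies lowest at -1.46.

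The scaling of the libraries bears on every value below. TMM factors were 0.942, 1.11 and 0.896 in the calycosin plus LPS libraries, 0.791, 0.786 and 0.813 in the LPS libraries and 1.42, 1.42 and 1.05 in the vehicle libraries. Scaled by library totals in place of TMM, the median log2 fold change of all genes tested was -0.77 for LPS over vehicle (-0.07 with TMM), 0.33 for calycosin plus LPS over LPS (0.02 with TMM) and -0.40 for calycosin plus LPS over vehicle (-0.0045 with TMM). Changes are therefore read relative to this median gene, and called genes whose direction for LPS over vehicle flips under library totals are named where they are described. Gene positions are those of GENCODE M21 (GRCm38, the build mm10 of the submitters' processing notes).

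Srf itself encodes the DNA-binding factor that gives the group its name. The CArG box, a pattern that a match fulfils on both strands at once, was searched for in the 300 bases around each RefSeq gene start (250 of them before the start), in build GRCm38.p6. A window was at hand for 37 of the 40 genes (not for Actb, Marcks and Rac2), and 6 of the 37 (16.2%) held a CArG box, against 488 of 27025 genes with a window (1.81%) and 535 of all 32851 windows (1.63%). The 40 genes were drawn up partly as known SRF targets, so the share describes the list and is not a result of the treatment. The stretches with the box are shown because the CArG box is the motif that SRF binds. Binding at these sites was not measured. They run 5′ to 3′ on the strand of the gene, with the box in capitals:
Actg1: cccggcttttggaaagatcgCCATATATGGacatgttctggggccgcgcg
Cnn2: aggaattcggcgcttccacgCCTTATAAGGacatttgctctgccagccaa
Lima1: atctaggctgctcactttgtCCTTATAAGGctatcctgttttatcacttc
Myo1e: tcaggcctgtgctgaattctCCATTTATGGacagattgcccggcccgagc
Srf: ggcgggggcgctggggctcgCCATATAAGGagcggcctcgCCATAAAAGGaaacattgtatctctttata
Vcl: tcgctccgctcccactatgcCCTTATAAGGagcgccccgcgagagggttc

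These stretches lie at chr11:120348556-120348605 on the minus strand for Actg1, chr10:79988524-79988573 on the plus strand for Cnn2, chr15:99820167-99820216 on the minus strand for Lima1, chr9:70207298-70207347 on the plus strand for Myo1e, chr17:46556195-46556264 on the minus strand for Srf and chr14:20929151-20929200 on the plus strand for Vcl. Cnn2, Lima1 and Vcl shared the same 10 letters of the box, and Srf held 2 boxes. Relative to the RefSeq start of the window the boxes began at -90 in Actg1, -56 in Cnn2, -47 in Lima1 and -32 in Myo1e. They began at -82 and -62 in Srf and -227 in Vcl. The RefSeq start used for Lima1 lies inside the gene as GENCODE M21 places it (chr15:99778470-99875456), so its box is not upstream of that gene's outer start. The treatment results of these 6 genes are taken up after the roles have been described.

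LPS cells had more RNA of most of these genes than vehicle cells. Of the 40 genes, 31 rose and 4 fell with LPS at an adjusted p below 0.05, and 5 did not pass (Pfn1, Coro1a, Tpm1, Capg and Cnn2). Among all genes tested 27.3% were called higher and 28.9% lower. At a change of at least 2-fold, 21 of the 40 rose and 2 fell, where 16.3% of all genes were higher and 17.3% lower. The median log2 fold change was 1.05 over the 40 genes and -0.07 over all genes. The actins, the Arp2/3 subunits among the 40, the crosslinkers and the adhesion proteins supplied most of the rises. Myo1f, Coro1c, Vav1 and Srf were the 4 that fell. With libraries scaled by their totals 15 of the 40 rose and 6 fell, where 13.0% of all genes were called higher and 53.6% lower, around a median of 0.35 for the 40 genes and -0.77 for all genes, and 34 of the 40 lay above the median gene under either scaling. Besides the rises that changed direction there, those of Arpc2, Arpc5, Flna, Fscn1, Vcl, Tln1 and Vasp did not pass under library totals. Without vehicle replicate 3, 30 rose and 5 fell, where 4451 of 14938 genes were higher and 5090 lower. A further fit used the 6 libraries with a mitochondrial share over 10%. Vehicle replicate 3 is the only vehicle library among them and is assumed to vary like the others. The median log2 fold change there was 0.93 over the 40 genes and -0.02 over all genes. In those 6 libraries the rises of Cfl1, Was, Wasf2, Actn4, Fscn1, Tagln2, Vcl and Ezr and the fall of Vav1 did not pass.

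Calycosin before LPS went with lower levels of many of these genes. Relative to LPS cells, 20 of the 40 genes fell in calycosin plus LPS cells and 1, Ezr, rose, while 19 did not pass. Over all genes tested 12.9% were called lower and 16.1% higher. The falls were mostly smaller than 2-fold: 3 genes (Actb, Coro1a and Flna) fell by at least that much and 0 rose by it, where 4.42% of all genes were lower and 7.05% higher. The median log2 fold change was -0.51 over the 40 genes and 0.02 over all genes, and 8 of the 40 lay above the median gene. With library totals 8 fell (Actb, Cfl1, Wdr1, Arpc2, Was, Rac2, Actn1 and Myh9) and 1 rose, where 4.91% of all genes were called lower and 23.6% higher, around a median of -0.21 for the 40 genes and 0.33 for all genes. The other 12 falls did not pass there, and of the genes without a call Actn4, Lcp1, Msn, Myo1e, Srf, Tagln2, Vav1 and Wasf2 changed sign. In each of the tests on TPM 2 of the 40 fell, where 286 and 288 of 12879 genes, and 300 of 25775 without a filter, were lower. Without calycosin plus LPS replicate 2, 19 fell and 1 rose, where 1439 of 14904 genes were lower and 1796 higher. Without vehicle replicate 3, which enters through the spread shared by the groups, 22 fell and 1 rose. Over all genes 2576 of 14938 were lower and 3164 higher there. The count of falls was most affected by calycosin plus LPS replicate 1, without which 13 fell, where 1224 of 14930 genes were lower. Among the libraries with a mitochondrial share over 10% the median log2 fold change was -0.47 over the 40 genes and 0.02 over all genes.

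Set against vehicle cells and scaled by TMM, calycosin plus LPS cells were still higher for many of these genes. In that comparison 20 of the 40 were higher, 7 were lower (Myo1f, Coro1c, Coro1a, Vav1, Capg, Cfl1 and Srf) and 13 did not pass, where 25.4% of all genes were called higher and 23.6% lower. At 2-fold or more the counts were 12 higher and 3 lower, where 13.5% of all genes were higher and 11.9% lower. The median log2 fold change was 0.40 over the 40 genes and -0.0045 over all genes. Without vehicle replicate 3, 22 were higher and 8 lower, where 4376 of 14938 genes were higher and 4337 lower. Without calycosin plus LPS replicate 2, 21 were higher and 7 lower, where 3531 of 14904 genes were higher and 3256 lower. With library totals 14 were higher and 11 lower, where 14.1% of all genes were called higher and 35.6% lower. The median log2 fold change there was -0.0093 for the 40 genes and -0.40 for all genes. Under either scaling 27 of the 40 lay above the median gene. This comparison shares the vehicle libraries with the comparison of LPS with vehicle and the calycosin plus LPS libraries with the comparison above, so the 3 sets of values are not independent.

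**Figure D2:**
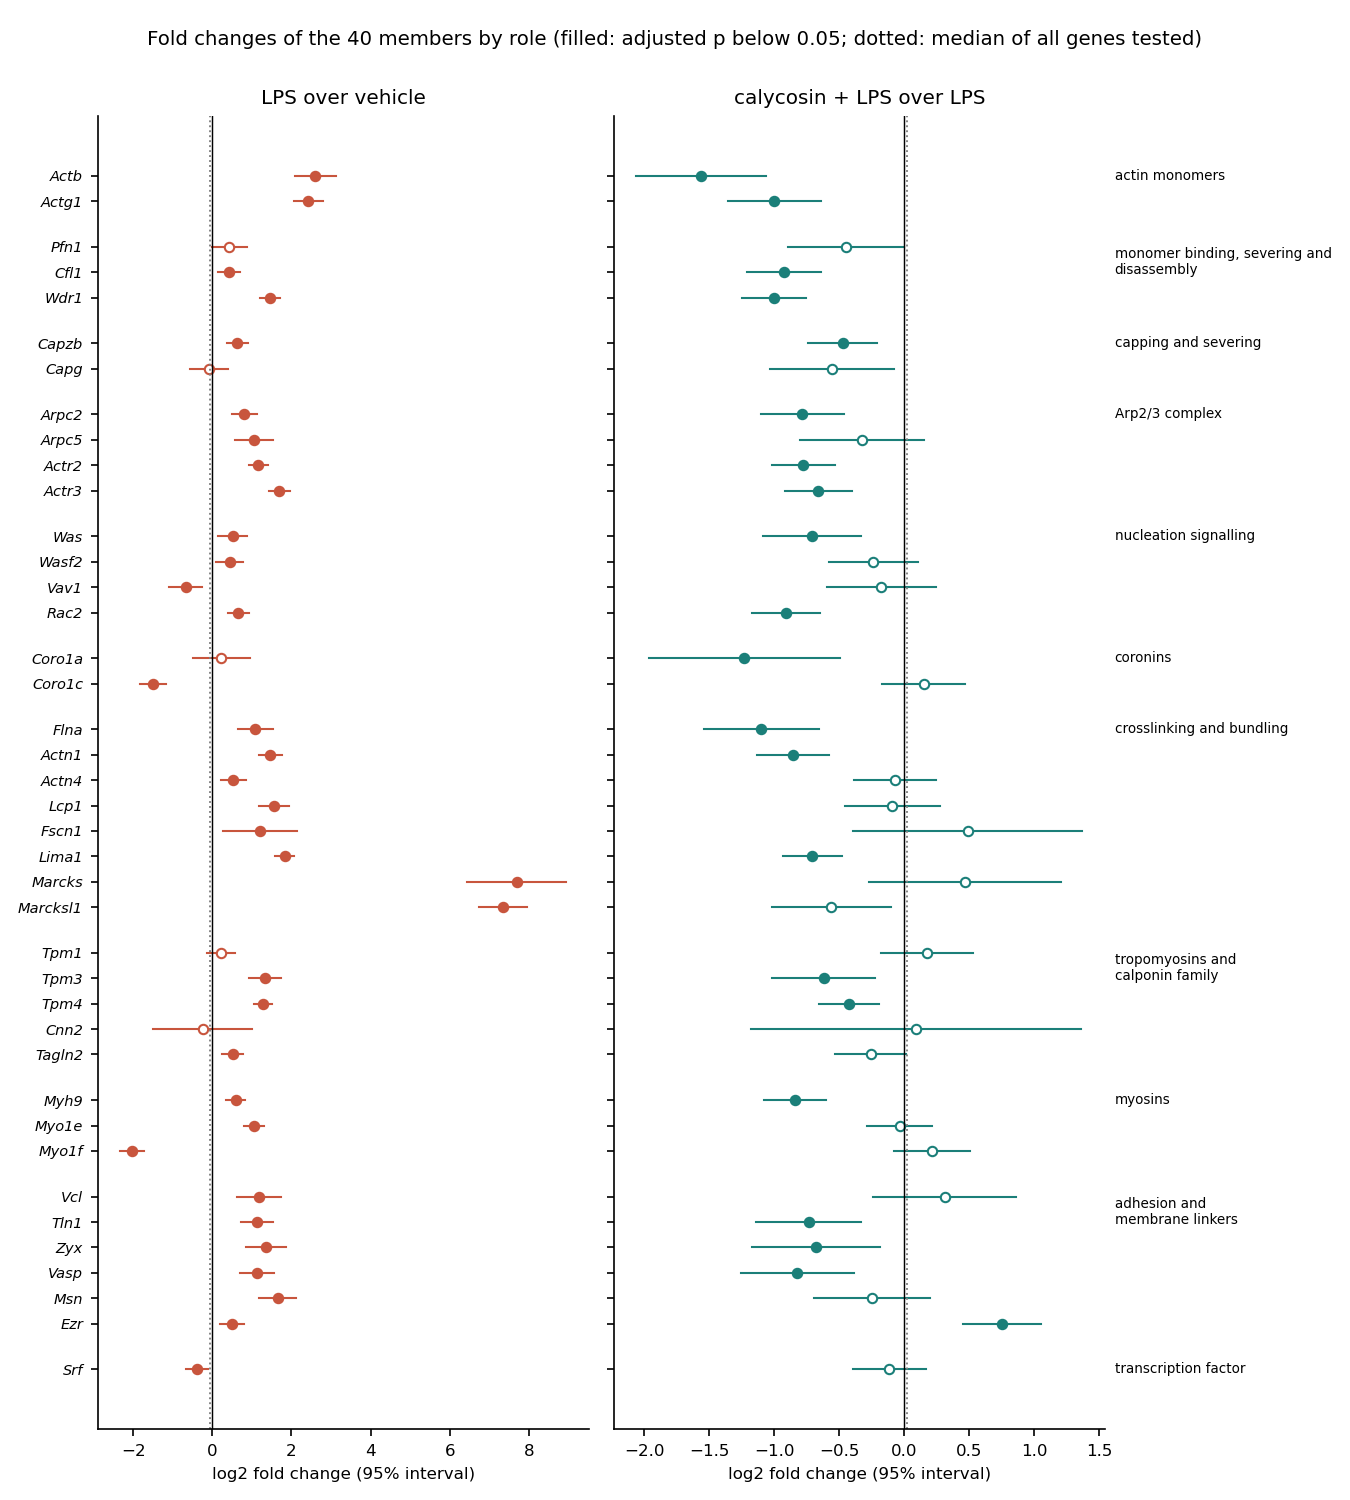
Log2 fold changes of the 40 genes, grouped by role, for LPS over vehicle (left) and calycosin plus LPS over LPS (right), with 95% intervals from edgeR and 3 libraries in each group. Filled points have an adjusted p below 0.05 and the dotted line marks the median of all genes tested. Most points lie right of the line on the left panel and left of it on the right panel, with Ezr as the only filled point right of the line there.

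Actb and Actg1 encode the cytoplasmic actins, beta and gamma, the monomers from which the filaments are built. Actb (chr5:142903115-142906754, minus strand) was at 1989, 1634 and 2001 CPM in calycosin plus LPS cells, 5619, 5240.3 and 5774 CPM in LPS cells and 745, 743 and 1245 CPM in vehicle cells. The LPS libraries lay above all others and the calycosin plus LPS libraries lay between them and vehicle, without overlap. Actb rose with LPS over vehicle (log2 fold change 2.61 ± 0.23 SE, adjusted p = 9.46e-06) and fell in calycosin plus LPS cells relative to LPS cells (-1.56 ± 0.22 SE, adjusted p = 0.000984). It stayed higher in calycosin plus LPS cells than in vehicle cells (1.04 ± 0.22 SE, adjusted p = 0.00357). It was the 1 gene of the 20 that fell with calycosin to do so in every alternative tried.

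Actg1 (chr11:120345690-120348542, minus strand) was at 529, 705 and 569 CPM in calycosin plus LPS cells, 1275, 1192 and 1137 CPM in LPS cells and 250.1, 236 and 183 CPM in vehicle cells, in the same order and again without overlap. Its log2 fold change was 2.43 ± 0.17 SE for LPS over vehicle (adjusted p = 1.68e-06) and -1.0 ± 0.16 SE for calycosin plus LPS over LPS (adjusted p = 0.00183). The fall missed the threshold under library totals and in the tests on TPM. Of the 50-base stretches of Actg1, 56.7% also occur in other genes, 51.1% in the processed pseudogene Gm12715, which had 1254 to 6867 counts, so reads of the pair may have been divided between them. The corresponding share was 14.2% for Actb, and 1.60% of Actb also occurs in Actg1.

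In the deposited TPM values, transcript levels that are divided by length and so allow genes to be compared, Actb was 12.9%, 10.7% and 12.8% of the summed level of the 40 genes in calycosin plus LPS cells, 22.3%, 20.5% and 23.5% in LPS cells and 7.63%, 7.66% and 11.3% in vehicle cells. By mean TPM it ranked 2 of 40 in calycosin plus LPS cells, behind Lcp1, 1 in LPS cells and 4 in vehicle cells, behind Cfl1, Pfn1 and Capg. Actg1 made up 23.2%, 33.8% and 25.0% of the 2 actins in calycosin plus LPS cells, 20.2%, 21.6% and 17.8% in LPS cells and 24.6%, 23.2% and 14.3% in vehicle cells. The LPS and vehicle values of that last share overlap.

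**Figure D3:**
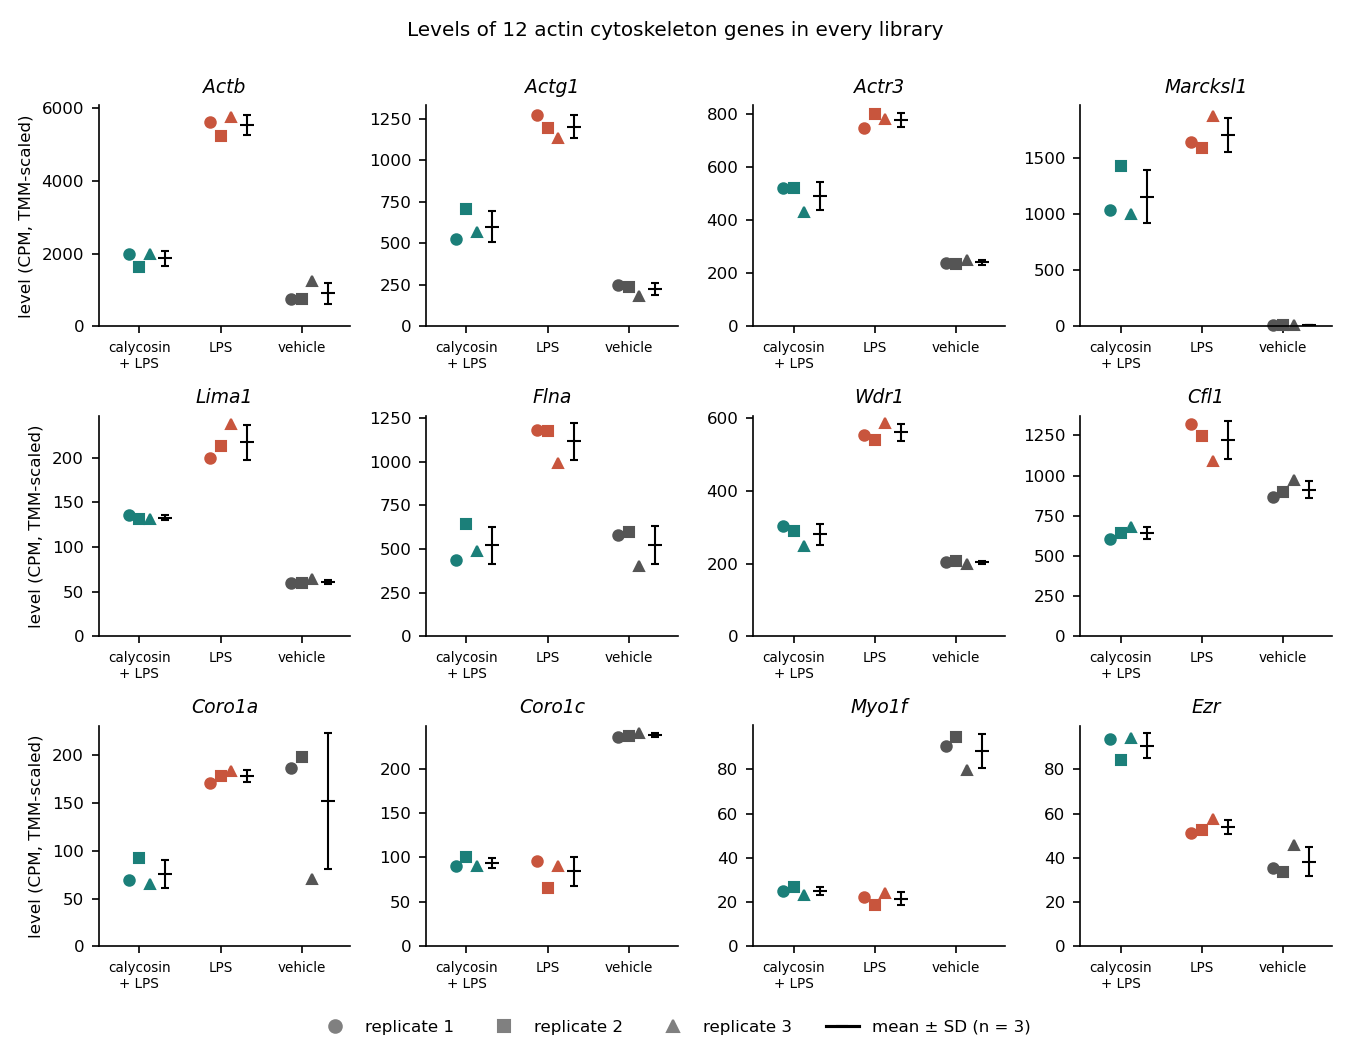
Levels of 12 of the 40 genes in TMM-scaled CPM (y axes, each from 0) in the 3 calycosin plus LPS, 3 LPS and 3 vehicle libraries, with symbols for replicates and bars for mean ± SD. Actb, Actg1, Actr3, Lima1 and Wdr1 are highest in LPS cells and intermediate with calycosin, Marcksl1 is near 0 in vehicle cells only, Coro1c and Myo1f are highest in vehicle cells, and Ezr is highest in calycosin plus LPS cells.

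All 4 genes of the 40 from the Arp2/3 complex, the machine that nucleates branched filaments, rose with LPS. Over all genes tested 27.3% were called higher. Actr3 (chr1:125392905-125435727, minus strand), the Arp3 subunit, was at 521, 518 and 431 CPM in calycosin plus LPS cells, 747, 799 and 781 CPM in LPS cells and 238, 234 and 251 CPM in vehicle cells. The 3 groups did not overlap, with LPS highest and vehicle lowest. Its log2 fold change was 1.69 ± 0.12 SE for LPS over vehicle (adjusted p = 1.83e-06) and -0.66 ± 0.11 SE for calycosin plus LPS over LPS (adjusted p = 0.00269). Stretches shared with other genes made up 49.8% of Actr3, mostly with the pseudogene Gm8822, which had 19 to 35 counts. Actr2 (Arp2), Arpc5 and Arpc2 rose by 1.17, 1.05 and 0.81 log2 units with LPS. Under library totals Actr3 and Actr2 still passed, while Arpc5 at 0.34 and Arpc2 at 0.14 did not. In the tests on TPM the rises of Actr2, Arpc5 and Arpc2 did not pass. Actr2 and Arpc2 fell by 0.78 and 0.78 log2 units with calycosin, and Arpc5 did not pass (log2 fold change -0.32, adjusted p = 0.286).

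Of the 4 genes that switch on Arp2/3, 3 rose and 1 fell with LPS. Over all genes tested 27.3% were called higher and 28.9% lower. Was, the haematopoietic WASP, Wasf2, a WAVE protein, and Rac2, the haematopoietic Rac GTPase that drives WAVE, rose with LPS by 0.51, 0.44 and 0.65 log2 units with TMM, and under library totals these 3 were at -0.16, -0.25 and -0.03, without a call. Was did not pass without vehicle replicate 1 or 2, nor without LPS replicate 2 or 3, and Wasf2 did not pass without replicate 1 or 2 of either vehicle or LPS. Was and Rac2 fell by 0.71 and 0.91 log2 units with calycosin, and the call of Was missed the threshold without LPS replicate 2. Wasf2 had a log2 fold change of -0.24 there, with an adjusted p of 0.277. Vav1 (chr17:57279100-57328031, plus strand), an exchange factor that loads Rac with GTP in blood cells, was at 49.5, 67.2 and 53.5 CPM in calycosin plus LPS cells, 65.3, 64.8 and 62.1 CPM in LPS cells and 116, 118 and 72.9 CPM in vehicle cells. Vehicle replicates 1 and 2 were the highest libraries and vehicle replicate 3 was close to the stimulated groups. Vav1 fell with LPS (log2 fold change -0.67 ± 0.19 SE, adjusted p = 0.0124), which did not pass with a correction for GC content (-0.33) and among the libraries with a mitochondrial share over 10% (-0.21). It was also lower in calycosin plus LPS cells than in vehicle cells (-0.85 ± 0.19 SE, adjusted p = 0.00471).

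Profilin, cofilin and Aip1 govern the supply of monomers. Pfn1, or profilin, which charges monomers for assembly, passed in none of the 3 comparisons, with log2 fold changes of 0.43 for LPS over vehicle and -0.45 for calycosin plus LPS over LPS. The LPS over vehicle value was -0.28 under library totals, and with a correction for GC content it was 0.98, called higher. LPS replicates 1 and 2 were at 941 and 915 CPM, above all other libraries, and LPS replicate 3 was at 521 CPM, below all others. Pfn1 was called higher with LPS in 3 of 24 alternatives, and lower with calycosin relative to LPS in 2 of 24. Cfl1 (chr19:5490455-5495201, plus strand), or cofilin, which severs filaments, was at 606, 643 and 677 CPM in calycosin plus LPS cells, 1323, 1243 and 1091 CPM in LPS cells and 869, 895 and 971 CPM in vehicle cells. Here the order was LPS, vehicle, calycosin plus LPS, without overlap. Cfl1 rose with LPS by 0.42 ± 0.13 SE log2 units (adjusted p = 0.0169) with TMM and was at -0.28 under library totals, and it did not pass without vehicle replicate 1 or 2, nor without LPS replicate 1 or 2. It fell with calycosin (-0.93 ± 0.13 SE, adjusted p = 0.000793) and was lower than in vehicle cells as well (-0.51 ± 0.13 SE, adjusted p = 0.00826). Exons of Snx32 on the other strand cover 16.5% of the exon bases of Cfl1, and the counting is not stated to use strand.

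Wdr1 (chr5:38526813-38563221, minus strand) encodes Aip1, which helps cofilin take filaments apart. It was at 304, 289 and 249 CPM in calycosin plus LPS cells, 554, 541 and 588 CPM in LPS cells and 206, 206 and 198 CPM in vehicle cells, with no overlap between groups. Its log2 fold change was 1.46 ± 0.11 SE for LPS over vehicle (adjusted p = 3.34e-06) and -0.999 ± 0.11 SE for calycosin plus LPS over LPS (adjusted p = 0.000319). The rise of Wdr1 did not pass in 2 of the tests on TPM. Capzb, the beta subunit of the protein that caps filament ends, rose by 0.64 log2 units with LPS (-0.05 under library totals) and fell by 0.47 log2 units with calycosin, a call lost without calycosin plus LPS replicate 1 or 3.

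Capg (chr6:72544391-72562983, plus strand), a macrophage capping protein of the gelsolin family, was at 279.9, 378 and 289.7 CPM in calycosin plus LPS cells, 473, 443 and 476 CPM in LPS cells and 564, 580.4 and 326 CPM in vehicle cells. Vehicle replicate 3 lay 0.81 log2 units under the other vehicle libraries and inside the range of the calycosin plus LPS libraries. Its LPS over vehicle log2 fold change of -0.08 did not pass (adjusted p = 0.772), and with a correction for GC content it was 0.40, called higher. For calycosin plus LPS over LPS it was at -0.56 ± 0.21 SE, which did not pass (adjusted p = 0.0786) and was called lower in 8 of 24 alternatives. Against vehicle cells Capg was lower in calycosin plus LPS cells (-0.63 ± 0.21 SE, adjusted p = 0.0334), a call that was lost in 13 of 24 alternatives, among them without vehicle replicate 1 or 2, any 1 LPS replicate, or calycosin plus LPS replicate 1 or 3.

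Coronins bind filaments and help turn branched networks over. Coro1a (chr7:126699773-126707787, minus strand), the leukocyte coronin, was at 69.3, 92.9 and 65.2 CPM in calycosin plus LPS cells, 171, 179 and 184 CPM in LPS cells and 187, 199 and 70.0 CPM in vehicle cells. All 3 calycosin plus LPS libraries lay below all LPS libraries, and the vehicle libraries spanned both. Its log2 fold change for LPS over vehicle did not pass (0.23, adjusted p = 0.571), and it was -0.55 under library totals, without a call. With a correction for GC content it was 0.77 and among the libraries with a mitochondrial share over 10% 1.32, both called higher. It fell with calycosin relative to LPS (log2 fold change -1.23 ± 0.33 SE, adjusted p = 0.02), and the call was lost without any 1 LPS replicate or without calycosin plus LPS replicate 1 or 3. Against vehicle cells it was also lower (-1.003 ± 0.33 SE, adjusted p = 0.029), which did not pass without vehicle replicate 1 or 2, nor without calycosin plus LPS replicate 1 or 3, with a log2 fold change of -0.06 among the libraries with a mitochondrial share over 10%.

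Coro1c (chr5:113842436-113908758, minus strand), the widely expressed coronin, was at 90.1, 100.2 and 90.4 CPM in calycosin plus LPS cells, 96.4, 65.8 and 90.8 CPM in LPS cells and 236, 237 and 239.9 CPM in vehicle cells. Every vehicle library was far above every stimulated library. It fell with LPS (log2 fold change -1.49 ± 0.14 SE, adjusted p = 1.71e-05) and was lower than in vehicle cells with calycosin before LPS as well (-1.34 ± 0.14 SE, adjusted p = 5.67e-05). Between the stimulated groups its log2 fold change was 0.15, with a 95% interval of -0.17 to 0.47. Both falls were called in every alternative tried.

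All 8 crosslinking and bundling genes, the largest role, rose with LPS, as did all genes of the actin, Arp2/3 and adhesion roles. Over all genes tested 27.3% were called higher. Under library totals 5 of the 8 passed, where 13.0% of all genes were called higher. Marcksl1 and Marcks encode substrates of protein kinase C that hold actin at the plasma membrane, and they differed most between stimulated and vehicle cells. Marcksl1 (chr4:129513581-129515985, plus strand) was at 1034, 1431 and 1004 CPM in calycosin plus LPS cells, 1644, 1594 and 1877 CPM in LPS cells and 11.2, 12.6 and 7.72 CPM in vehicle cells. The vehicle libraries were far below all others, and the 2 stimulated groups did not overlap. Its log2 fold change was 7.34 ± 0.27 SE for LPS over vehicle (adjusted p = 2.51e-08) and 6.78 ± 0.26 SE for calycosin plus LPS over vehicle (adjusted p = 5.08e-08). The difference of -0.56 ± 0.20 SE between the stimulated groups missed the threshold (adjusted p = 0.0664) and was called lower in 10 of 24 alternatives. By mean TPM Marcksl1 ranked 3 of 40 in calycosin plus LPS cells and in LPS cells, and 36 in vehicle cells.

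Marcks (chr10:37133375-37138920, minus strand) was at 9.83, 8.38 and 10.8 CPM in calycosin plus LPS cells, 7.15, 8.73 and 5.07 CPM in LPS cells and 0.0803, 0 and 0 CPM in vehicle cells, and the vehicle value rests on 4 reads in replicate 1. That mean is under the level that 3 counts would give (0.0602 to 0.0912 CPM in the vehicle libraries), so no fold is given for it. It was called higher in both stimulated groups (adjusted p = 2.53e-06 for LPS over vehicle and 2.54e-06 for calycosin plus LPS over vehicle). Between the stimulated groups the log2 fold change was 0.47 ± 0.33 SE, adjusted p = 0.319. With at most 10.8 CPM Marcks was among the rarest of the 40 genes, at rank 38 by TPM in both stimulated groups.

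Lcp1 (chr14:75131101-75230842, plus strand), or L-plastin, is the filament bundler of leukocytes, and it was at 3274, 2912 and 3338 CPM in calycosin plus LPS cells, 3389, 3409 and 3341 CPM in LPS cells and 1031, 1019 and 1395 CPM in vehicle cells. The stimulated groups lay above all vehicle libraries and close to each other. Its log2 fold change was 1.56 ± 0.17 SE for LPS over vehicle (adjusted p = 3.51e-05), -0.09 ± 0.16 SE for calycosin plus LPS over LPS (adjusted p = 0.712, 95% interval -0.46 to 0.28) and 1.47 ± 0.17 SE for calycosin plus LPS over vehicle (adjusted p = 8.39e-05). Lcp1 rose with LPS and was not called lower with calycosin.

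Lima1 (chr15:99778470-99875456, minus strand), or EPLIN, bundles filaments and slows their branching. It was at 136, 131 and 132 CPM in calycosin plus LPS cells, 199.6, 214 and 239 CPM in LPS cells and 60.1, 59.4 and 64.0 CPM in vehicle cells, with no overlap between the 3 groups. It rose with LPS (log2 fold change 1.83 ± 0.10 SE, adjusted p = 4.64e-07) and fell with calycosin (-0.71 ± 0.10 SE, adjusted p = 0.00104). Flna (chrX:74223461-74249820, minus strand), or filamin A, which joins filaments into loose gels and anchors them to integrins, was at 435, 641 and 490.2 CPM in calycosin plus LPS cells, 1181, 1178 and 996 CPM in LPS cells and 580.2, 595 and 401 CPM in vehicle cells. The LPS libraries were above all others, and the calycosin plus LPS and vehicle libraries overlapped. Flna rose with LPS by 1.09 ± 0.20 SE log2 units (adjusted p = 0.00112) and fell by 1.10 with calycosin (SE 0.20, adjusted p = 0.00316), which left calycosin plus LPS cells at -0.01 log2 units from vehicle cells (95% interval -0.45 to 0.43). Neither the rise nor the fall passed under library totals (0.35 and -0.78) or in the tests on TPM.

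Fscn1 (chr5:142960343-142973185, plus strand), or fascin, the bundler of filopodia, was rare, at 0.595, 1.62 and 0.874 CPM in calycosin plus LPS cells, 0.729, 0.697 and 0.789 CPM in LPS cells and 0.341, 0.308 and 0.304 CPM in vehicle cells. The vehicle libraries were the lowest. It was higher with LPS than with vehicle (log2 fold change 1.20 ± 0.42 SE, adjusted p = 0.0331), a call that was lost when any 1 LPS or vehicle library was left out. Against vehicle, calycosin plus LPS cells were higher (1.69 ± 0.40 SE, adjusted p = 0.00682), and this call was lost only among the libraries with a mitochondrial share over 10%. Actn1 and Actn4, the alpha-actinins that space filaments in bundles, rose with LPS by 1.47 and 0.53 log2 units, the second turning to -0.15 under library totals and losing its call without vehicle replicate 1 or 2. The rise of Actn1 did not pass in 1 of the tests on TPM. Actn1 fell by 0.86 with calycosin, and Actn4 had a log2 fold change of -0.07 (adjusted p = 0.735).

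Tropomyosins coil along filaments and decide which myosins and severing proteins reach them. Tpm3 and Tpm4 rose with LPS by 1.33 and 1.28 log2 units and fell with calycosin by 0.62 and 0.43, while Tpm1 passed in none of the comparisons (0.22 for LPS over vehicle, 0.18 for calycosin plus LPS over LPS). The rise of Tpm4 did not pass in the tests on TPM. The fall of Tpm3 was lost without any 1 LPS replicate or calycosin plus LPS replicate 1 or 2, and that of Tpm4 without calycosin plus LPS replicate 1 or 3. Of the 50-base stretches of Tpm3, 17.0% also occur in Tpm3-rs7, which had 17058 to 29133 counts. In every library this was more than Tpm3 itself had (12521 to 19759). Under library totals Tpm1 was called lower with LPS, at -0.47.

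As shares of the summed TPM of the 3 tropomyosins, Tpm1 took 19.8%, 17.1% and 15.9% in calycosin plus LPS cells, 10.7%, 11.3% and 12% in LPS cells and 21%, 21.4% and 20.1% in vehicle cells. These shares do not depend on the scaling of libraries, and the 3 groups did not overlap. They may depend on how reads were divided between Tpm3 and Tpm3-rs7. Tagln2, or transgelin-2, which steadies filaments, rose with LPS by 0.51 log2 units with TMM (-0.17 under library totals) and did not pass with calycosin (-0.26, adjusted p = 0.145). Cnn2, or calponin-2, was at 0.164 to 1.16 CPM over all libraries and passed in none of the comparisons.

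The 3 myosins changed in different directions. Myo1f (chr17:33555707-33607764, plus strand), a membrane-bound myosin of leukocytes, was at 24.9, 27.0 and 23.0 CPM in calycosin plus LPS cells, 22.1, 18.6 and 24.1 CPM in LPS cells and 90.6, 94.5 and 79.9 CPM in vehicle cells. Both stimulated groups lay far below vehicle cells and overlapped each other. It fell with LPS (log2 fold change -2.03 ± 0.13 SE, adjusted p = 1.26e-06) and was lower in calycosin plus LPS cells than in vehicle cells (-1.82 ± 0.13 SE, adjusted p = 3.88e-06), in every alternative tried. Myo1e, its close relative, rose by 1.04 log2 units with LPS, which did not pass in the tests on TPM. It was at -0.03 for calycosin plus LPS over LPS (95% interval -0.28 to 0.22). Of the summed TPM of the 2 genes, Myo1f took 10.7%, 11.7% and 9.94% in calycosin plus LPS cells, 9.80%, 8.72% and 9.5% in LPS cells and 47.3%, 49.9% and 40.4% in vehicle cells. Myh9, the heavy chain of non-muscle myosin II, which contracts actin bundles, rose by 0.59 log2 units with LPS with TMM (-0.11 under library totals) and fell by 0.84 with calycosin (adjusted p = 0.000579).

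**Figure D4:**
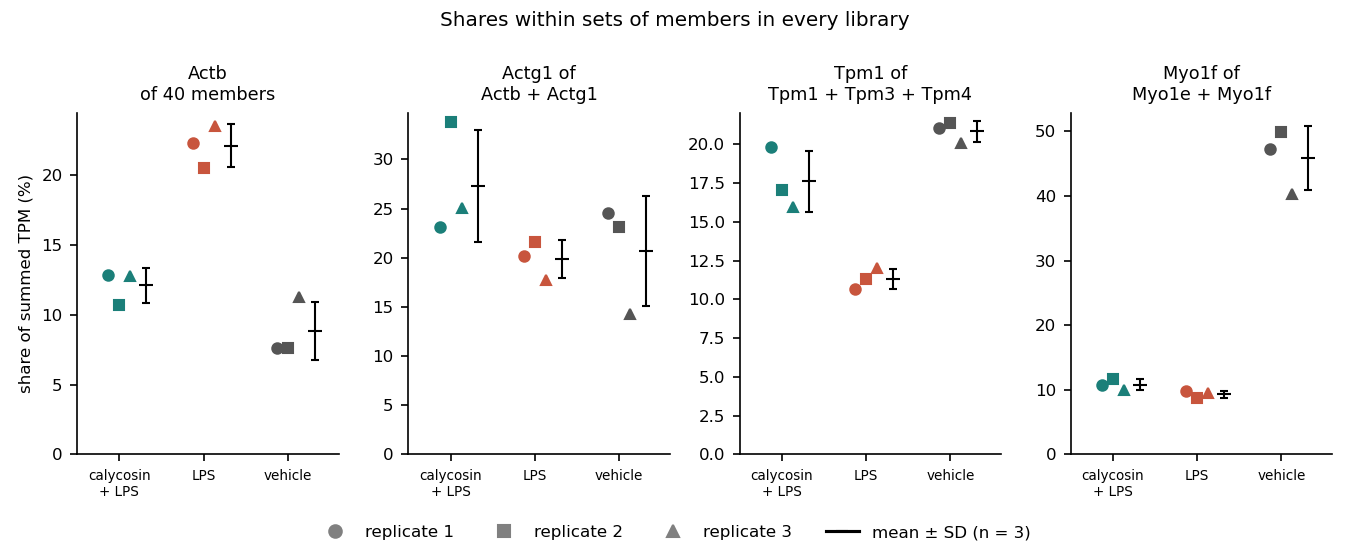
Shares of summed TPM (y axes in percent, each from 0) in the 3 calycosin plus LPS, 3 LPS and 3 vehicle libraries, with symbols for replicates and bars for mean ± SD. Actb takes 20.5% to 23.5% of the 40 genes in LPS cells, Actg1 of the 2 actins overlaps between LPS and vehicle cells, Tpm1 of 3 tropomyosins is lowest in LPS cells, and Myo1f of Myo1e and Myo1f is 8.72% to 11.7% in the stimulated groups and 40.4% to 49.9% in vehicle cells.

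All 6 adhesion and membrane linkers among the 40 rose with LPS with TMM, where 27.3% of all genes were called higher. Under library totals 2 of the 6 passed, Msn and Zyx, while Vcl, Tln1 and Vasp did not and Ezr was at -0.18. Over all genes 13.0% were called higher in that scaling. The rises of Vcl, Tln1 and Vasp also did not pass in the tests on TPM. Msn, or moesin, which ties filaments to membrane proteins in leukocytes, rose by 1.65 log2 units and had -0.24 (adjusted p = 0.391) for calycosin plus LPS over LPS. Zyx, or zyxin, and Vasp, which speeds filament growth at adhesions, rose by 1.35 and 1.13, and Tln1, or talin-1, which activates integrins, by 1.13. These 3 fell with calycosin by 0.68, 0.82 and 0.73 log2 units. The fall of Zyx was lost without vehicle replicate 1 or any 1 LPS or calycosin plus LPS library, that of Vasp without calycosin plus LPS replicate 1 or 3, and that of Tln1 without either of these or LPS replicate 1.

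Vcl (chr14:20929398-21033676, plus strand), or vinculin, which reinforces talin on filaments, was at 61.9, 73.8 and 49.9 CPM in calycosin plus LPS cells, 37.5, 39.4 and 72.6 CPM in LPS cells and 21.6, 22.4 and 21.9 CPM in vehicle cells. LPS replicate 3 was nearly as high as the highest calycosin plus LPS library, and the vehicle libraries were lowest. Vcl rose with LPS (1.18 ± 0.25 SE, adjusted p = 0.00282) and was higher than vehicle with calycosin too (1.49 ± 0.25 SE, adjusted p = 0.000992), with 0.31 ± 0.25 SE between the stimulated groups (adjusted p = 0.372). Exons of Ap3m1 on the other strand cover 25.5% of its exon bases, and without strand reads of the overlap cannot be told apart.

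Ezr (chr17:6738041-6782784, minus strand), or ezrin, a relative of moesin that is best known from epithelia, was at 93.9, 84.1 and 94.3 CPM in calycosin plus LPS cells, 51.4, 52.7 and 57.6 CPM in LPS cells and 35.3, 33.5 and 45.8 CPM in vehicle cells. Every calycosin plus LPS library was above every LPS library, and these were above every vehicle library. Ezr rose in calycosin plus LPS cells relative to LPS cells (log2 fold change 0.75 ± 0.13 SE, adjusted p = 0.00308) and relative to vehicle cells (1.25 ± 0.14 SE, adjusted p = 6.24e-05), in every alternative tried. Its smaller rise with LPS (0.50 ± 0.13 SE, adjusted p = 0.0105) was lost without vehicle replicate 1 or 2.

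Srf (chr17:46548329-46556175, minus strand) was at 40.02, 43.2 and 45.1 CPM in calycosin plus LPS cells, 46.4, 51.9 and 40.5 CPM in LPS cells and 56.5, 57.5 and 66.8 CPM in vehicle cells. The vehicle libraries were highest and the 2 stimulated groups overlapped. Srf fell with LPS (log2 fold change -0.38 ± 0.12 SE, adjusted p = 0.0258) and was lower in calycosin plus LPS cells than in vehicle cells (-0.50 ± 0.12 SE, adjusted p = 0.00905). Its transcript has 64.4% GC, the highest of the 40, and with a correction for GC content these values were 0.36 and 0.11, without a call. The fall with LPS was also lost without LPS replicate 1 or 3. Between the stimulated groups the log2 fold change was -0.11 ± 0.13 SE (adjusted p = 0.529).

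Of the 6 genes with a CArG box shown above, Actg1, Lima1, Myo1e and Vcl rose with LPS over vehicle. Srf fell and Cnn2 did not pass. Of all 40 genes 31 rose and 4 fell, where 27.3% of all genes tested were called higher and 28.9% lower. With calycosin relative to LPS, Actg1 and Lima1 fell and the other 4 did not pass. Of all 40 genes 20 fell and 1 rose there, where 12.9% of all genes tested were called lower and 16.1% higher. Against vehicle cells, Actg1, Lima1, Myo1e and Vcl were higher in calycosin plus LPS cells and Srf was lower. Of all 40 genes 20 were higher and 7 lower, where 25.4% of all genes tested were called higher and 23.6% lower. A match in a window describes the sequence and is not a measured binding site.

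SRF acts through cofactors of the MRTF and Elk families. Of Mrtfa, Mrtfb, Elk1, Elk3 and Elk4, 0 of 5 rose and 1, Elk3, fell with LPS (log2 fold change -0.46, adjusted p = 0.0377), and 0 of 5 were called in either direction with calycosin relative to LPS. Mrtfa averaged 73.2 CPM in calycosin plus LPS cells, 61.9 CPM in LPS cells and 88.4 CPM in vehicle cells, and Mrtfb 72.1, 65.7 and 54.7 CPM in the same groups. Against vehicle cells 1 of the 5, again Elk3, was lower in calycosin plus LPS cells (log2 fold change -0.79, adjusted p = 0.00373). The shares over all genes to set beside the lists are 27.3% higher and 28.9% lower for LPS over vehicle, 16.1% and 12.9% for calycosin plus LPS over LPS, and 25.4% and 23.6% for calycosin plus LPS over vehicle. Of 18 other genes known as SRF targets through MRTF in other cells, 11 were expressed enough to be tested. With LPS 5 of the 11 rose and 4 fell, with calycosin relative to LPS 2 rose and 2 fell, and against vehicle 5 were higher and 3 lower in calycosin plus LPS cells.

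Among those targets Pdlim5 and Pdlim7 lay higher in LPS cells than in vehicle cells, by log2 fold changes of 1.75 and 1.63, and Anln was at -1.49. Acta2, the smooth muscle actin, averaged 0.0313 CPM in calycosin plus LPS cells, 1.54 CPM in LPS cells and 0.365 CPM in vehicle cells, the first of which is under the level of 3 counts. Of 8 targets that SRF shares with Elk proteins, 6 rose and 0 fell with LPS, with log2 fold changes of 7.93 for Egr1, 4.57 for Egr2 and 3.32 for Junb. With calycosin relative to LPS 3 of the 8 fell and 0 rose, namely Egr2 (-1.89), Ier2 (-1.88) and Mcl1 (-0.86). Against vehicle 6 were higher and 0 lower in calycosin plus LPS cells.

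The remaining actin genes gave a mixed picture. Of the 5 other subunits of Arp2/3, 2 rose and 1 fell with LPS (Arpc3 at 0.70, Arpc5l at 0.34 and Arpc1b at -0.71 log2 units), around a median of -0.23, where the 4 subunits described above had a median of 1.11. With calycosin relative to LPS 0 rose and 1 fell, Arpc3 at -0.59, and against vehicle 0 were higher and 3 lower. Of 17 tested nucleation promoters and formins 10 rose and 3 fell with LPS, led by Diaph2 at 2.73 and Daam1 at 2.67. With calycosin relative to LPS 2 rose and 6 fell, led by Diaph2 at -2.07 and Fmnl1 at -1.47, and against vehicle 6 were higher and 4 lower. Of 21 tested regulators of monomers, capping and filaments 14 rose and 4 fell with LPS, among them Tmsb10, a thymosin that holds monomers, at 2.10 and Hcls1 at 1.87. In this list 3 rose and 5 fell with calycosin relative to LPS, Hcls1 at -0.79 among them, and 11 were higher and 3 lower against vehicle.

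Of 11 tested myosins and light chains 2 rose and 2 fell with LPS, 1 rose and 3 fell with calycosin relative to LPS, and 2 were higher and 3 lower against vehicle. Myl12a, a light chain of non-muscle myosin, was at 1.56 for LPS over vehicle and -0.84 for calycosin plus LPS over LPS. Of 12 other adhesion and membrane linkers 7 rose and 1 fell with LPS, 2 rose and 8 fell with calycosin relative to LPS, and 5 were higher and 3 lower against vehicle. Itga5, the fibronectin receptor subunit, was at 2.31 for LPS over vehicle and -0.99 for calycosin plus LPS over LPS, and Lpp at 1.97 and -1.77.

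The split of higher and lower calls in these lists also moved with the scaling. Under library totals the shares over all genes were 13.0% higher and 53.6% lower for LPS over vehicle, 23.6% and 4.91% for calycosin plus LPS over LPS, and 14.1% and 35.6% for calycosin plus LPS over vehicle. Scaled by library totals, the other Arp2/3 subunits had 0 higher and 3 lower for LPS over vehicle, 0 higher and 0 lower for calycosin plus LPS over LPS and 0 higher and 3 lower for calycosin plus LPS over vehicle. Among the nucleation promoters and formins the counts were 7 higher and 6 lower for LPS over vehicle, 4 higher and 2 lower for calycosin plus LPS over LPS and 5 higher and 4 lower for calycosin plus LPS over vehicle. Of the regulators of monomers, capping and filaments the same scaling called 7 higher and 5 lower for LPS over vehicle, 4 higher and 1 lower for calycosin plus LPS over LPS and 7 higher and 4 lower for calycosin plus LPS over vehicle. For the myosins and light chains the calls were 1 higher and 6 lower for LPS over vehicle, 1 higher and 1 lower for calycosin plus LPS over LPS and 0 higher and 6 lower for calycosin plus LPS over vehicle. Among the adhesion and membrane linkers the counts were 4 higher and 4 lower for LPS over vehicle, 2 higher and 1 lower for calycosin plus LPS over LPS and 4 higher and 3 lower for calycosin plus LPS over vehicle. Of the SRF targets through MRTF the same scaling called 3 higher and 4 lower for LPS over vehicle, 4 higher and 1 lower for calycosin plus LPS over LPS and 3 higher and 3 lower for calycosin plus LPS over vehicle. For the targets shared with Elk proteins the calls were 6 higher and 0 lower for LPS over vehicle, 0 higher and 3 lower for calycosin plus LPS over LPS and 6 higher and 0 lower for calycosin plus LPS over vehicle. Among the SRF cofactors the counts were 0 higher and 3 lower for LPS over vehicle, 0 higher and 0 lower for calycosin plus LPS over LPS and 0 higher and 2 lower for calycosin plus LPS over vehicle. Of the macrophage markers the same scaling called 2 higher and 2 lower for LPS over vehicle, 0 higher and 2 lower for calycosin plus LPS over LPS and 1 higher and 2 lower for calycosin plus LPS over vehicle.

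The marker lists moved as well. Of the 8 macrophage markers 4 rose and 2 fell with LPS, 0 rose and 3 fell with calycosin relative to LPS (Cd14 at -1.30, Ptprc at -0.81 and Lyz2 at -0.58 log2 units), and 4 were higher and 2 lower against vehicle. Of the 12 markers of other cell types 2 could be tested, of which 1 rose with LPS and 1 fell with calycosin relative to LPS, Cdh5 in both cases, at means of 0.671 CPM in calycosin plus LPS cells, 4.76 CPM in LPS cells and 0.354 CPM in vehicle cells. Neither tested marker was called against vehicle. The part of these shifts in the results above was not tested.

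The plot of fold changes under different scalings shows how far each gene moved with the choice. With LPS over vehicle, Actb, Actg1, Actr3, Lcp1, Lima1, Marcks, Marcksl1, Tpm3, Zyx and Msn were called higher, and Coro1c and Myo1f lower, in all 24 alternatives tried. Of the other 21 rises, 9 turned to the other side of 0 in at least 1 alternative (Cfl1, Capzb, Was, Wasf2, Rac2, Actn4, Tagln2, Myh9 and Ezr), all 9 under library totals and in the tests on TPM. For calycosin plus LPS over LPS, Actb stayed called lower and Ezr higher in all 24, and 0 of the 20 falls turned direction in any. For calycosin plus LPS over vehicle, Lcp1, Marcks, Marcksl1, Msn and Ezr stayed higher and Coro1c and Myo1f lower in all 24.

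**Figure D5:**
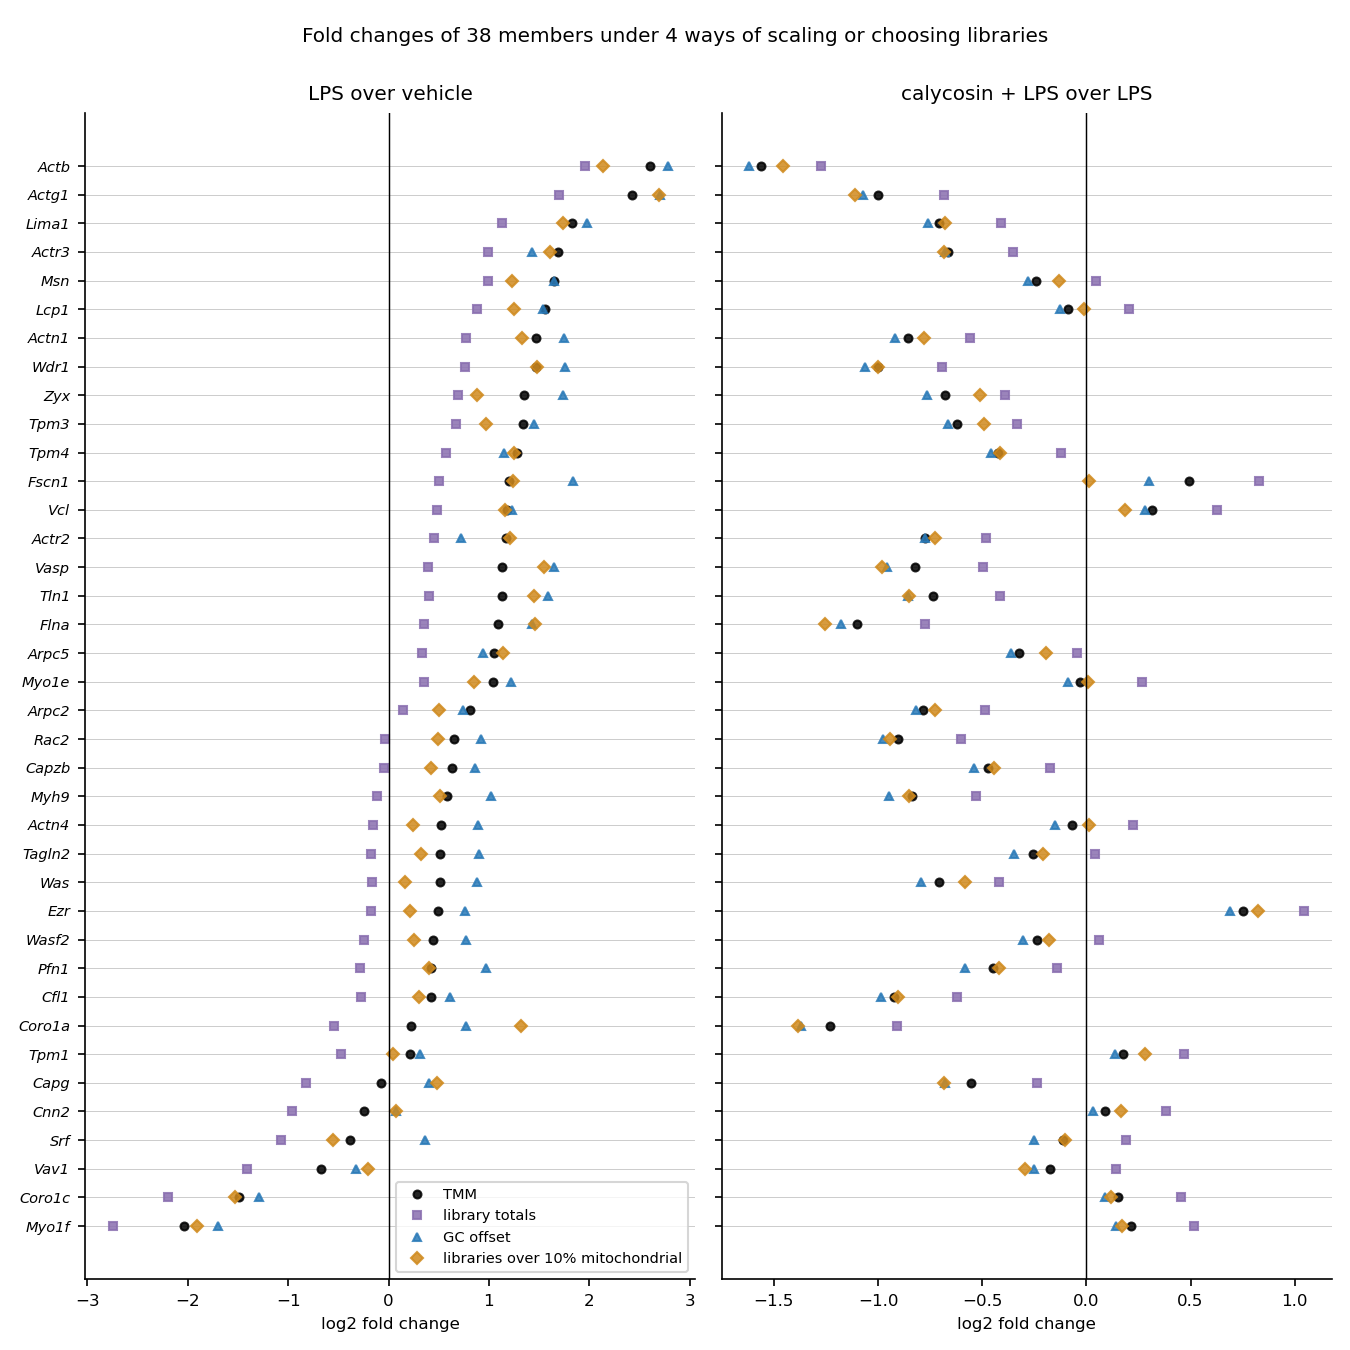
Log2 fold changes (x axes) of 38 of the 40 genes, without Marcks and Marcksl1, for LPS over vehicle (left) and calycosin plus LPS over LPS (right). Black circles use TMM and all libraries, squares library totals, triangles a GC content offset, and diamonds only libraries with a mitochondrial share over 10%. Library totals shift the LPS comparison to the left and the calycosin comparison to the right for every gene, so genes near 0 cross it, while Actb and Actg1 stay on their side in both panels, Coro1c and Myo1f on the left and Ezr on the right.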

How the data were processed

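Polyadenylated RNA of 9 RAW 264.7 cultures was sequenced, 3 per group. The authors' count table holds whole-number read counts for 51826 genes, not normalized. A second deposited table gives TPM, set per length and per library by the authors, for 51799 genes. Per the submitters' processing notes Trimmomatic 0.36, HISAT2 2.0 and StringTie 1.3.3b were used with build mm10. Not given in the sources used here were the read counter, the annotation release, the use of strand and the handling of reads with several matches.

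Genes were filtered with filterByExpr, libraries scaled by TMM, and 1 model of all 9 libraries fitted with edgeR 4.0.16 (quasi-likelihood F test, two-sided) in R 4.3.3. Benjamini-Hochberg adjustment ran over the 14458 genes of each comparison, and a call is an adjusted p below 0.05. SE and 95% intervals follow from the test statistic. An exact permutation of 3 against 3 libraries cannot go below 0.1. Comparisons between groups share libraries. A count of 0 allows up to 3 counts, which is 0.0602 to 0.137 CPM, counting error only. The script was tested on simulated counts. No pair of libraries was a duplicate.

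The 24 alternatives included DESeq2 1.42.0, other scalings, filters and designs, each replicate left out, limma 3.58.1 on log2(TPM + 1) and log2(TPM + 0.1), and an offset for GC content fitted as a lowess trend per library. Of these, 3 were chosen after seeing the data: library totals, libraries with a mitochondrial share over 10%, and the GC offset without vehicle replicate 3. The 40 genes and the 11 gene lists (144 genes, 144 found, 4 of them under older symbols) were chosen with earlier results of these data known. Values in every library are given for Actb, Actg1, Srf and the 6 highest and 6 lowest called genes of each comparison. From each list up to 3 called genes per direction could be named. Results of 1 of the lists and of single genes in others are not reported here. Sequence came from RefSeq windows in GRCm38.p6 and positions from GENCODE M21.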

Additional observations from a re-analysis of the deposited data

How the results depend on the processing

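The calls depended most on how libraries were put on 1 scale. The tests with limma were on log2(TPM + 1), log2(TPM + 0.1) and log2(TPM + 1) without a filter. They called 13, 12 and 11 of the 40 genes higher with LPS over vehicle. Over all genes these counts were 1342 and 1342 of 12879, and 1503 of 25775. With calycosin plus LPS over LPS 2, 2 and 2 were lower, against 286, 288 and 300 of all genes. With calycosin plus LPS over vehicle 7, 8 and 6 were higher, against 1331, 1317 and 1412 of all genes. Without a filter 4 were lower there, against 2794 of all genes. With library totals 15 were higher for LPS over vehicle, where 13.0% of all genes were. In that scaling 8 were lower for calycosin plus LPS over LPS and 11 lower for calycosin plus LPS over vehicle. Over all genes these shares were 4.91% and 35.6%. With the GC content offset 2 were lower for LPS over vehicle and 4 for calycosin plus LPS over vehicle. Over all genes 3868 and 3260 of 14458 were lower there. Leaving out 1 replicate at a time gave 1 to 2 higher and 13 to 22 lower for calycosin plus LPS over LPS. Without LPS replicate 3, 2 were higher, where 1952 of 14967 genes were. Without calycosin plus LPS replicate 1, 13 were lower, where 1224 of 14930 genes were. All other counts were within 1.5 times those reported, DESeq2 included. The cause of these differences was not tested.

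The log2 fold changes below are of genes that changed sign and were called as reported, under the alternative, or in both. With library totals they were Cfl1 -0.28, Capzb -0.047, Was -0.16, Wasf2 -0.25, Rac2 -0.035, Actn4 -0.15, Tpm1 -0.47, Tagln2 -0.17, Myh9 -0.11 and Ezr -0.18 for LPS over vehicle and Arpc2 -0.35 and Actr2 -0.023 for calycosin plus LPS over vehicle. With log2(TPM + 1) they were Cfl1 -0.36, Capzb -0.16, Was -0.25, Wasf2 -0.34, Rac2 -0.12, Actn4 -0.34, Tagln2 -0.28, Myh9 -0.20 and Ezr -0.26 for LPS over vehicle and Actr2 -0.058 and Actn4 -0.0198 for calycosin plus LPS over vehicle. With log2(TPM + 0.1) they were Cfl1 -0.36, Capzb -0.16, Was -0.26, Wasf2 -0.35, Rac2 -0.12, Actn4 -0.35, Tagln2 -0.29, Myh9 -0.20 and Ezr -0.27 for LPS over vehicle and Actr2 -0.058 and Actn4 -0.0199 for calycosin plus LPS over vehicle. With log2(TPM + 1) without a filter they were Cfl1 -0.36, Capzb -0.16, Was -0.25, Wasf2 -0.34, Rac2 -0.12, Actn4 -0.34, Tagln2 -0.28, Myh9 -0.20 and Ezr -0.26 for LPS over vehicle and Actr2 -0.058 and Actn4 -0.0198 for calycosin plus LPS over vehicle. With the GC content offset they were Capg 0.40 and Srf 0.36 for LPS over vehicle and Actr2 -0.049 and Srf 0.11 for calycosin plus LPS over vehicle. With that offset and without vehicle replicate 3 they were Capg 0.27 and Srf 0.64 for LPS over vehicle and Actr2 -0.20, Myh9 0.23 and Srf 0.38 for calycosin plus LPS over vehicle. Among libraries with a mitochondrial share over 10% it was Capg 0.49 for LPS over vehicle. No sign changed for a called gene in calycosin plus LPS over LPS.

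The reported fit did not pair libraries by replicate number. Correlations of deviations between libraries of the same number ran from -0.17 to 0.36. Between libraries of different numbers they ran from -0.47 to 0.36. A fit with the replicate number as a block called 29 of the 40 higher and 4 lower for LPS over vehicle. Over all 14458 genes 3910 were higher and 3930 lower there. For calycosin plus LPS over LPS 1 was higher and 20 lower, where 2113 and 1701 of all genes were. For calycosin plus LPS over vehicle 20 were higher and 7 lower, where 3604 and 3163 of all genes were.

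With 3 libraries a group, and with vehicle replicate 3 and calycosin plus LPS replicate 2 unlike their groups in mitochondrial share and GC trend, the part of library composition in small changes was not tested. Without both of these libraries 31 of the 40 genes were higher and 5 lower for LPS over vehicle. Over all 14845 genes 4600 were higher and 5239 lower there. For calycosin plus LPS over LPS 1 was higher and 23 lower, where 3063 and 2670 of all genes were. For calycosin plus LPS over vehicle 23 were higher and 10 lower, where 4516 and 4404 of all genes were. Depth limits Fscn1, Cnn2 and Marcks, with levels near or below 1 CPM in at least 1 group. Reads of Actg1, Actr3 and Tpm3 may be shared with near copies. Levels are of RNA, and calycosin without LPS was not measured.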
